A study of Mus musculus with 16 samples.

Results

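The genes described here are the potassium channel genes of mouse glomeruli, taken as every gene symbol that begins with Kcn, continues with lower-case letters and then a digit, and reached at least 1 FPKM in at least 7 of 16 libraries. FPKM is a count of sequenced fragments scaled for transcript length and for the size of the library, so that levels of different genes can be compared. The deposited table lists 25791 symbols. Such a name was carried by 93 of them, and 27 were chosen by their FPKM level. That level was reached by 13286 symbols in all, and the tests ran on those. All 16 libraries came from eNOS-/- db/db mice, which lack endothelial nitric oxide synthase and have 2 copies of the db mutation in the gene for the leptin receptor, kept on a standard diet. In 9 mice no drug was given. The other 7, called RAAS-blocked below, received lisinopril at 20 mg/day, which inhibits angiotensin-converting enzyme, and losartan at 30 mg/day, which blocks the angiotensin II type 1 receptor. Both drugs block the renin-angiotensin-aldosterone system (RAAS). The mice drank them in their water from an age of 10 to 12 weeks up to 26 weeks. The deletion and the db mutation were shared by both groups, and mice without them were not analysed here. Glomeruli had been collected from 1 kidney with iron and a magnet, and the labels do not say library by library that each is a separate mouse, so p-values measure the spread between libraries, part of which may be technical.

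Potassium channels let potassium leave or enter a cell along its gradient and set the membrane voltage. In the tubule they recycle and secrete potassium, which keeps salt transport running, and in the vessel wall they hold smooth muscle relaxed. Inward rectifiers (Kcnj genes) and two-pore channels (Kcnk genes) conduct at rest, voltage-gated pores open on depolarization, and accessory subunits change how a pore opens without conducting. A glomerulus has no tubule or thick-walled artery of its own, but short stretches of both come along with a preparation, so markers of those cells were read beside each channel: Umod (uromodulin) for the thick ascending limb, Aqp2 (aquaporin-2) for principal cells of the collecting duct and Acta2 (smooth muscle actin) for the vessel wall.

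Members of the Umod-following group described below include Kcnj1, Kcnj10 and Kcnj16, whose levels rose and fell together, and the 250 bases before their starts are printed with those of Umod so that the letters can be compared. Sequences are from RefSeq on GRCm38.p6, read 5′ to 3′ on the gene's strand, and 20 of 27 members matched the table, with 29 starts. Umod is at chr7:119479263-119479512 on the minus strand, Kcnj1 at chr9:32393735-32393984 on the plus strand, Kcnj10 at chr1:172340960-172341209 on the plus strand and Kcnj16, for 1 of its 4 starts, at chr11:110967783-110968032 on the plus strand. Capitals mark matches, on either strand, to an HNF1 half-site (GTTAAT), a nuclear receptor half-site (AAGGTCA) or a steroid receptor half-site (AGAACA).
Umod: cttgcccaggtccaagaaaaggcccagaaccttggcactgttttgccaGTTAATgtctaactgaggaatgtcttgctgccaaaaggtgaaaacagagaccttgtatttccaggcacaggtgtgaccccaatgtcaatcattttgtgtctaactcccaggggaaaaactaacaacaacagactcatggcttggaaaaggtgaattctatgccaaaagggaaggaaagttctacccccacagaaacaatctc
Kcnj1: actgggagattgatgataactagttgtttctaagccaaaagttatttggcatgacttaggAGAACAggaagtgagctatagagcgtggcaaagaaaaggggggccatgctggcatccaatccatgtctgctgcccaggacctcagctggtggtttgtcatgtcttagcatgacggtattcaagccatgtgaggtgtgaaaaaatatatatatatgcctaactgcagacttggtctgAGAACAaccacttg
Kcnj10: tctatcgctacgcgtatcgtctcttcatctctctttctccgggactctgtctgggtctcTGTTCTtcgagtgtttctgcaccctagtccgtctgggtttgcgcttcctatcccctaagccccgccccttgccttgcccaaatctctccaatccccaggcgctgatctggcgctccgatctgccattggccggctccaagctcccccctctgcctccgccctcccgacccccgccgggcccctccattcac
Kcnj16: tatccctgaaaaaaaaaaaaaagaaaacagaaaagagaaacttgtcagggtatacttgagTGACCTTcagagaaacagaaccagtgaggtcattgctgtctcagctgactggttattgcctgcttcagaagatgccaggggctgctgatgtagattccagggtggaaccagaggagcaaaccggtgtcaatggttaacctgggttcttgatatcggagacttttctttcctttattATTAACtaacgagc
The windows share no single motif. Umod held an HNF1 half-site on its own strand and this Kcnj16 window held one on the opposite strand at -14 from the start, besides a nuclear receptor half-site at -190. Kcnj1 held the steroid receptor half-site at -190 and -14, and Kcnj10 held it once on the opposite strand. The other 3 Kcnj16 windows held no match, nor did the window of Kcnj15, another Umod follower, and these windows are not printed. Matches also lay outside the Umod followers. Kcnab1 held the HNF1 and the steroid receptor half-site and Kcnf1 the nuclear receptor half-site. The markers Acta2 and Aqp2 held the steroid receptor half-site. Among 32851 mouse promoter windows of this length 6.43% held the HNF1 half-site, 4.08% the nuclear receptor half-site and 16.1% the steroid receptor half-site. The CArG box of smooth muscle genes was searched only in its strict form, CC and GG with nothing but A or T between them. That form, which 1.47% of windows held, was not in the window of any matched member, nor in that of Acta2. Boxes with another letter in the core were not searched. A match describes letters, and the lack of one says nothing about the factor.

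The libraries carried the markers of glomeruli and variable amounts of other cells. Nphs1 (nephrin, of podocytes) lay between 181 and 470.1 FPKM, and 5 of 6 podocyte markers were tested, with Podxl listed at 0 throughout. Umod ranged from 107 to 1168 FPKM and Aqp2 from 17.2 to 545 FPKM, an 11.0-fold and a 31.7-fold range, while Acta2 ranged from 38.3 to 281 FPKM. None of the neuron and Schwann cell markers reached the level for testing. RAAS-blocked replicate 4 had 16919 symbols above 0 against 17993 to 18613 in the others, and it had the lowest Aqp2. Depth is unknown, since the table has no counts. The numbers that identify the samples fall in 2 unbroken runs, 1 for each group, so any difference in handling between the runs and the treatment cannot be told apart. In bulk RNA, fewer cells of a type and less RNA per cell cannot be told apart either.

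Inward rectifiers held the 3 highest mean levels among the members. Kcnj1, the ROMK channel through which thick limb and collecting duct secrete potassium, led with a mean of 62.4 FPKM, with a range of 24.6 to 127 FPKM. Kcnj16 followed at a mean of 48.5 FPKM and its partner Kcnj10 at 18.3 FPKM. The products of these genes join in the basolateral potassium channel of the distal nephron. Kcnq1, a voltage-gated pore found in epithelia and heart, had a mean of 15.7 FPKM, and Kcnk1, a two-pore channel, 14.5 FPKM. Kcnj5, an inward rectifier gated by G proteins, had 10.5 FPKM, Kcne1, the accessory subunit of Kcnq1, 9.20 FPKM, and Kcnj15, an inward rectifier of the proximal tubule, 8.52 FPKM. Kcnj15 varied most, 82.2-fold between libraries, and Kcnj5 least, 2.70-fold. At the low end of the members stood Kcnj8, the pore of the ATP-sensitive channel of pericytes and smooth muscle, at 1.14 FPKM, and Kcnk3, an acid-sensitive two-pore channel of the vessel wall, at 1.25 FPKM.

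By family, 7 of 15 inward rectifier genes in the table, 4 of 14 two-pore genes, 8 of 40 voltage-gated pores, 7 of 15 accessory subunits and 1 of 8 calcium- or sodium-activated pores were members. The remaining symbol, Kcnq1ot1, is an antisense RNA and was no member. In 16 of the 27 every library was at 1 FPKM or above, and 4 members needed libraries of both groups to reach 7. Kcnmb1 alone reached 7 in the RAAS-blocked group and not in the untreated one, with 7 and 6 libraries, and 5 members did so in the untreated group and not in the RAAS-blocked one. The level chose the members and is given as a description. The members nearest the limit were Kcnj8, whose seventh highest value was 1.13 FPKM, and Kcnj2, at 1.2 FPKM. Just outside were Kcnj12, at 0.929 FPKM with 6 libraries at 1 FPKM or above, and Kcns3, at 0.703 FPKM with 2. Of the 66 symbols that fell short, 4 were listed at 0 in every library, 54 stayed under 1 FPKM in every library and 8 passed it in 1 to 6. Kcnma1, the pore of the large calcium-activated channel, was among the 54, at no more than 0.490 FPKM, although its smooth muscle subunit Kcnmb1 was a member at a mean of 1.61 FPKM.

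**Figure D1:**
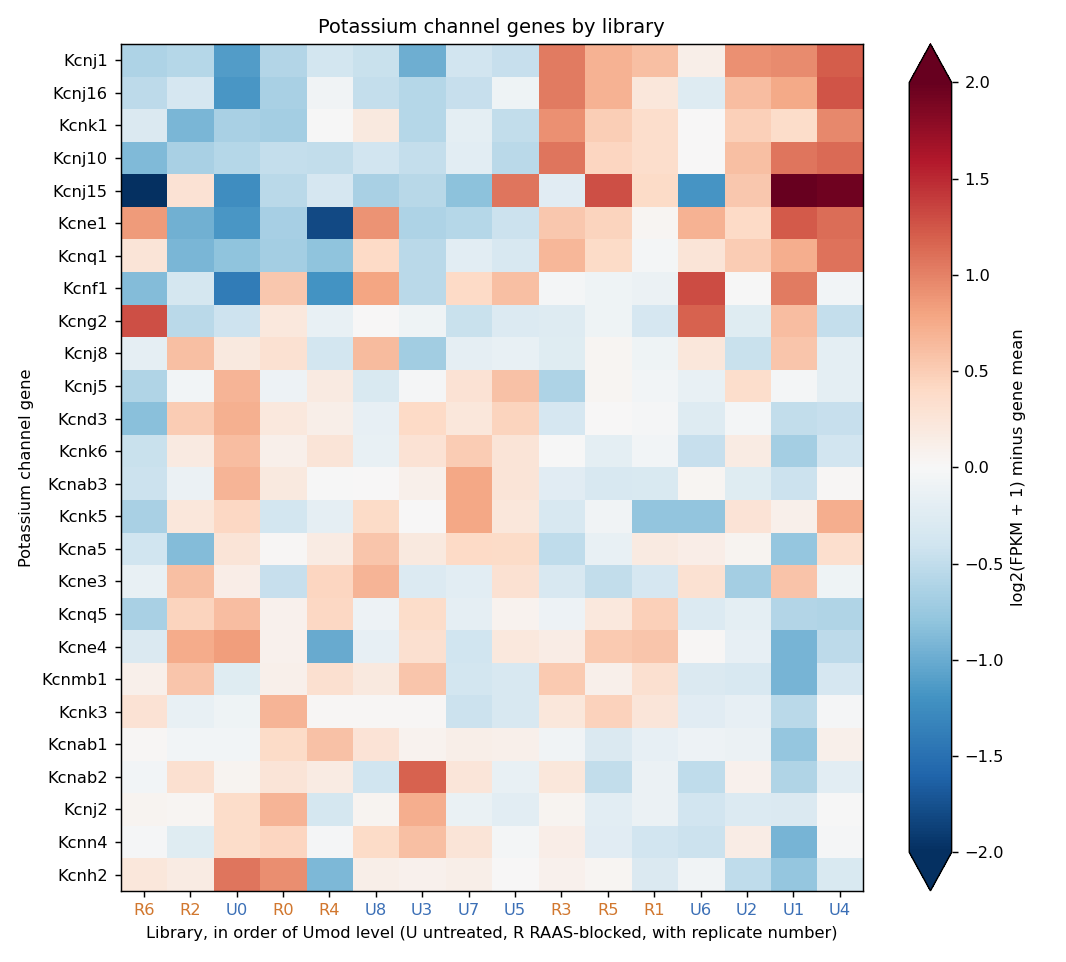
Level of 26 of the 27 potassium channel genes (rows) in each library (columns, ordered by Umod level, U untreated and R RAAS-blocked with the replicate number), as log2(FPKM + 1) minus the gene's mean. Kcnj1, Kcnj16, Kcnk1 and Kcnj10 are red together in most libraries at the right, which have the most Umod. An exception is untreated replicate 6 (Umod 669 FPKM), with Kcnj16 at 35.9 FPKM against a mean of 48.5 FPKM.

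The first comparison asked whether RAAS blockade changed potassium channel expression. None of the 27 members passed the test of RAAS-blocked against untreated libraries (limma on log2(FPKM + 1), Benjamini-Hochberg adjusted p under 0.05 over 13286 genes), where 0.0151% of all tested genes did. Those were 1 gene up and 1 down, and 3 and 3 without RAAS-blocked replicate 4. Without Rn18s and Mir27a they were 0 and 0. Rn18s was listed at 0 in every untreated library and at 2214 to 9925 FPKM in RAAS-blocked ones. At an unadjusted p under 0.05 there were 2 higher members (2.71% of all genes) and 1 lower member (3.42%). Mean levels were lower with treatment in 15 of 27 members, against 55.3% of all genes, and the median difference was -0.04 on the log2 scale, against -0.02. An exact rank test called no member either, with 4 of 27 at an unadjusted p under 0.05 (5.70% of all genes). No member had groups that did not overlap (0.0602% of all genes). A p above the threshold does not show that levels were the same.

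The lowest p-value belonged to Kcnk3. Its lowest, median and highest levels were 0.505, 0.966 and 1.24 FPKM in the 9 untreated libraries and 0.972, 1.59 and 2.52 FPKM in the 7 RAAS-blocked ones. All 7 RAAS-blocked libraries were above the untreated median, and the groups overlapped between 0.972 and 1.24 FPKM. The difference was 0.45 ± 0.12 (log2, SE), with a limma adjusted p of 0.490, and 0.82 with a pseudocount of 0.01 FPKM in place of 1 FPKM (limma adjusted p 0.552). Kcnmb1 had a similar pattern, with 0.323, 1.02 and 2.68 FPKM in untreated and 1.69, 2.12 and 2.70 FPKM in RAAS-blocked libraries. Again all 7 RAAS-blocked values lay above the untreated median, but untreated replicates 3 and 8 lay among them. Its difference was 0.52 ± 0.16, limma adjusted p 0.639, and 0.93 with the lower pseudocount (limma adjusted p 0.690). Kcnq5, a voltage-gated pore of smooth muscle and nerve, differed by 0.22 ± 0.19, Kcne4, an accessory subunit, by 0.20 ± 0.26 and Kcnab1, a beta subunit, by 0.10 ± 0.15, each within 2 standard errors of 0.

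The vessel wall markers were higher along with Kcnk3 and Kcnmb1. Of 9 vessel wall genes 8 had a higher mean in RAAS-blocked libraries, none was at 0 in all libraries, and their summed level was 257 to 1074 FPKM in untreated and 634 to 1343 FPKM in RAAS-blocked libraries. Acta2 itself was 150.4 ± 62.5 FPKM (SD, n = 9) untreated and 223 ± 40.4 FPKM (SD, n = 7) RAAS-blocked. The rise was not particular to the vessel wall. All 7 genes of the collecting duct principal cell list had a higher mean in RAAS-blocked libraries. So did all 6 of the mesangium and renin cell list. With the Acta2 level in the model, chosen after the data were seen, the difference was 0.29 for Kcnk3 (limma adjusted p 0.744) and 0.26 for Kcnmb1 (0.792). Kcnmb1 overlaps Kcnip1 on the other strand, which was listed at 0 in 14 of 16 libraries and at no more than 0.0334 FPKM. No source used here says whether strand was used in counting. In all, 15 of 27 members overlap an annotated gene on the other strand, and without strand their reads cannot be told apart.

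Among the members with lower means, Kcnk5, an alkali-sensitive two-pore channel of the tubule, stood first. Its lowest, median and highest levels were 2.89, 7.10 and 10.5 FPKM in untreated and 2.89, 4.39 and 6.87 FPKM in RAAS-blocked libraries. The treated libraries filled the lower end of the untreated range, where untreated replicates 1, 3 and 6 also lay. The difference was -0.54 ± 0.20, limma adjusted p 0.716. Kcna5, a voltage-gated pore of smooth muscle, had 0.837, 2.78 and 3.62 FPKM in untreated and 0.727, 1.85 and 2.59 FPKM in RAAS-blocked libraries, a difference of -0.39 ± 0.19 with a limma adjusted p of 0.817. No treated library exceeded the untreated median of Kcna5. With Acta2 in the model the difference for Kcna5 was -0.70 (limma adjusted p 0.464). The slope of Kcna5 on Acta2 in that model was 0.44 ± 0.13 (limma adjusted p 0.304). Their r was 0.94 within untreated libraries, replicate 1 included, and 0.04 within RAAS-blocked ones. With no term for treatment r was 0.27 and rho -0.06. That r was -0.52 without the 2 libraries most extreme in Acta2, 1 of which is untreated replicate 1. Kcnj5 differed by -0.31 ± 0.16, Kcnab3, a beta subunit, by -0.30 ± 0.16 and Kcnf1, a subunit that forms no channel alone, by -0.54 ± 0.35. The endothelial markers were lower along with these members. None of 7 had a higher mean in RAAS-blocked libraries, none was at 0 in all libraries, and their summed level was 1597 to 3035 FPKM untreated and 1197 to 2509 FPKM RAAS-blocked. Kdr was 381 ± 97.6 FPKM (SD, n = 9) untreated and 286 ± 108 FPKM (SD, n = 7) RAAS-blocked. Its r over the 16 libraries was 0.62 with Kcnk5, 0.89 with Kcnj5, 0.62 with Kcnab3, 0.37 with Kcna5 and -0.18 with Kcnf1. Within untreated libraries the r of the same 5 were 0.54, 0.90, 0.50, -0.02 and -0.58. The intercalated cell, distal convoluted tubule and erythroid lists also had 0 genes with a higher mean in RAAS-blocked libraries. The part of RNA from any of these cells in the differences of the channel genes was not tested.

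**Figure D2:**
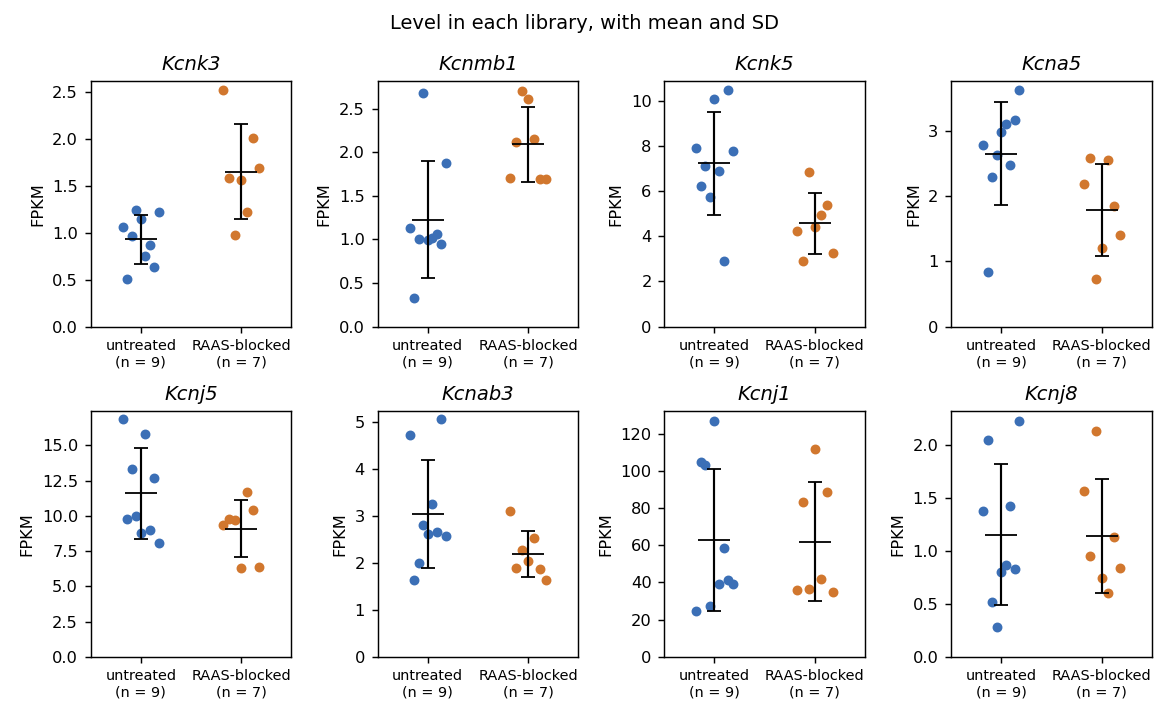
Level (FPKM, linear axis from 0) of 8 members in each of the 9 untreated and 7 RAAS-blocked libraries, with mean and SD drawn as lines. Kcnk3 and Kcnmb1 sit higher and Kcnk5 and Kcna5 lower in treated libraries with overlap, while Kcnj1 and Kcnj8 spread widely in both groups.

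The tubular and pericyte channels did not separate by treatment. Kcnj1 was 24.6, 41.5 and 127 FPKM at lowest, median and highest in untreated and 34.9, 42.0 and 112 FPKM in RAAS-blocked libraries. Each group held libraries near 40 FPKM and libraries near 100 FPKM, and the difference was 0.05 ± 0.38 (limma adjusted p 0.990). Kcnj8 was 0.283, 0.867 and 2.22 FPKM in untreated and 0.603, 0.952 and 2.13 FPKM in RAAS-blocked libraries. Its difference was 0.02 ± 0.20 (limma adjusted p 0.992), and for both genes the sign turned when single libraries were left out.

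**Figure D3:**
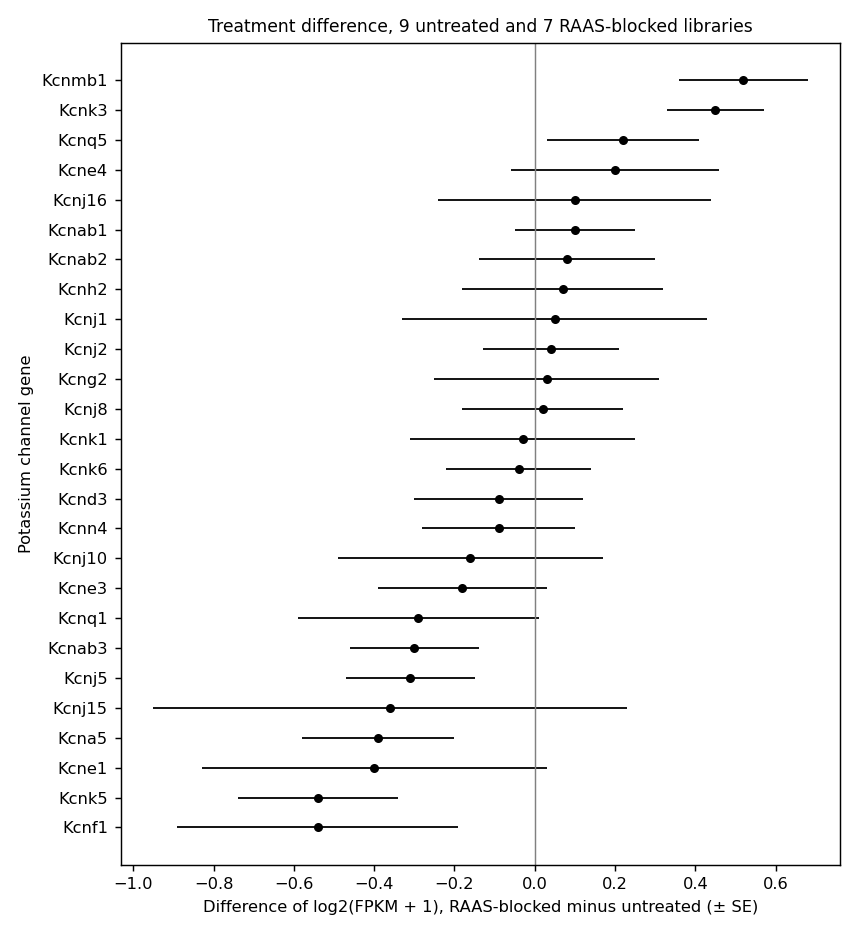
Difference of log2(FPKM + 1), RAAS-blocked minus untreated, for 26 of the 27 members, with bars of 1 SE. Kcnmb1 at 0.52 and Kcnk3 at 0.45 stand highest and Kcnf1 and Kcnk5 at -0.54 lowest, and none of them passed the adjusted threshold.

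The second comparison asked which members follow the level of a cell type marker. For each marker, limma fitted group and the log2 level of the marker, and a member was said to follow it where the slope was above 0 with an adjusted p under 0.05. A slope of 1 is a doubling of the channel gene for each doubling of the marker. Beside it stand Pearson's r and Spearman's rho over 16 libraries, with two-sided p from 100000 permutations, adjusted over 39855 relations of 3 markers with all genes. Between the markers themselves r was 0.42 and rho 0.48 for Umod and Aqp2 (adjusted permutation p 0.309 for r), -0.45 and -0.53 for Acta2 and Umod (0.245), and 0.07 and 0.08 for Acta2 and Aqp2 (0.899), and none passed.

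Umod was followed by 6 of 27 members, Kcnj1, Kcnj10, Kcnj16, Kcnj15, Kcnk1 and Kcnq1, where 12.3% of all genes followed it, and no member had a called negative slope (5.10% of all genes). With quantile normalization 3 members did, Kcnh2, Kcnj2 and Kcnn4, and without RAAS-blocked replicate 6 another 3, Kcnd3, Kcnk6 and Kcnq5. Without RAAS-blocked replicate 4 Kcnh2 did. The permutation test of r passed the same 6 members (10.5% of all genes). Of the 7 inward rectifiers among the members 4 were among these 6. With the replicate block of the closing section 2 of the 6 passed by slope, Kcnj1 and Kcnj10, and 212 of all genes did. Kcnj1 had a slope of 0.81 ± 0.08 (limma adjusted p 1.2e-05). The 3 untreated libraries with the most Umod, replicates 4, 1 and 2 at 1168, 798 and 740.5 FPKM, had Kcnj1 at 127, 105 and 103 FPKM. RAAS-blocked replicates 1, 5 and 3, with Umod at 527, 520.2 and 485 FPKM, had Kcnj1 at 83.2, 88.8 and 112 FPKM. Untreated replicate 6 was an exception, with Umod at 669 FPKM, above every RAAS-blocked library, and Kcnj1 at 58.7 FPKM. The remaining 9 libraries had at most 432 FPKM of Umod and 42.0 FPKM of Kcnj1. The r was 0.85 (permutation p 7.0e-05, adjusted 0.00435) and rho 0.84 (permutation p 9.0e-05, adjusted 0.00687). It stayed at 0.85 when the 2 libraries farthest from the Umod median were left out, and was 0.94 within untreated and 0.93 within RAAS-blocked libraries.

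The basolateral pair behaved alike. Kcnj10 ran from 10.7 through a median of 13.9 to 36.9 FPKM in untreated and from 8.42 through 11.4 to 35.2 FPKM in RAAS-blocked libraries, with a slope of 0.67 ± 0.09 (limma adjusted p 9.1e-05). Its r with Umod was 0.87 (permutation p 3.0e-05, adjusted 0.00283) and its rho 0.91 (permutation p 1.0e-05, the smallest these permutations can give, adjusted 0.00300). Kcnj16 ran from 18.7 through 35.9 to 105 FPKM in untreated and from 27.2 through 41.2 to 89.9 FPKM in RAAS-blocked libraries, with a slope of 0.68 ± 0.09 (limma adjusted p 1.3e-04). For both genes untreated replicate 4, the library with the most Umod, was highest. The r of Kcnj16 was 0.79 (permutation p 3.1e-04, adjusted 0.00971) and its rho 0.78 (permutation p 5.3e-04, adjusted 0.0165). With those 2 left out, r was 0.82 for Kcnj10 and 0.75 for Kcnj16.

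The remaining followers of Umod had a lower r over all libraries, but not by every measure. Kcnk1 had a slope of 0.50 ± 0.10 (limma adjusted p 0.00324), an r of 0.74 (permutation p 0.00132, adjusted 0.0216) and a rho of 0.79 (permutation p 5.3e-04, adjusted 0.0165). Kcnj15 had the steepest slope, 0.98 ± 0.24 (limma adjusted p 0.00952), with an r of 0.72 (permutation p 0.00155, adjusted 0.0236) and a rho of 0.66 (permutation p 0.00697, adjusted 0.0698). Leaving out the 2 libraries with the most extreme Umod gave r of 0.71 for Kcnk1, 0.53 for Kcnj15 and 0.81 for Kcnq1, against 0.75 for Kcnj16. Kcnq1 had a slope of 0.46 ± 0.13 (limma adjusted p 0.0234), an r of 0.69 (permutation p 0.00356, adjusted 0.0400) and a rho of 0.76 (permutation p 0.00111, adjusted 0.0245). With Acta2, Umod and Aqp2 in 1 model, Kcnj1, Kcnj10, Kcnj16 and Kcnk1 still passed for Umod. Kcnj15 kept a slope of 0.92 but missed the threshold (limma adjusted p 0.0611), whereas the slope of Kcnq1 went from 0.46 to 0.17 (limma adjusted p 0.212). Without untreated replicate 0, or without untreated replicate 4, Kcnq1 no longer passed, at slopes of 0.41 and 0.40 (limma adjusted p 0.0703 and 0.0892).

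At the other end of the Umod scale stood Kcnmb1, with an r of -0.54 (permutation p 0.0320, adjusted 0.155) and a rho of -0.55 (permutation p 0.0293, adjusted 0.164). Kcnh2, a voltage-gated pore known from heart rhythm, had an r of -0.52 (permutation p 0.0383, adjusted 0.174) and a rho of -0.75 (permutation p 0.00118, adjusted 0.0254). By the rank measure Kcnh2 therefore fell as Umod rose, and by the slope (-0.31 ± 0.13, limma adjusted p 0.109) it did not pass.

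**Figure D4:**
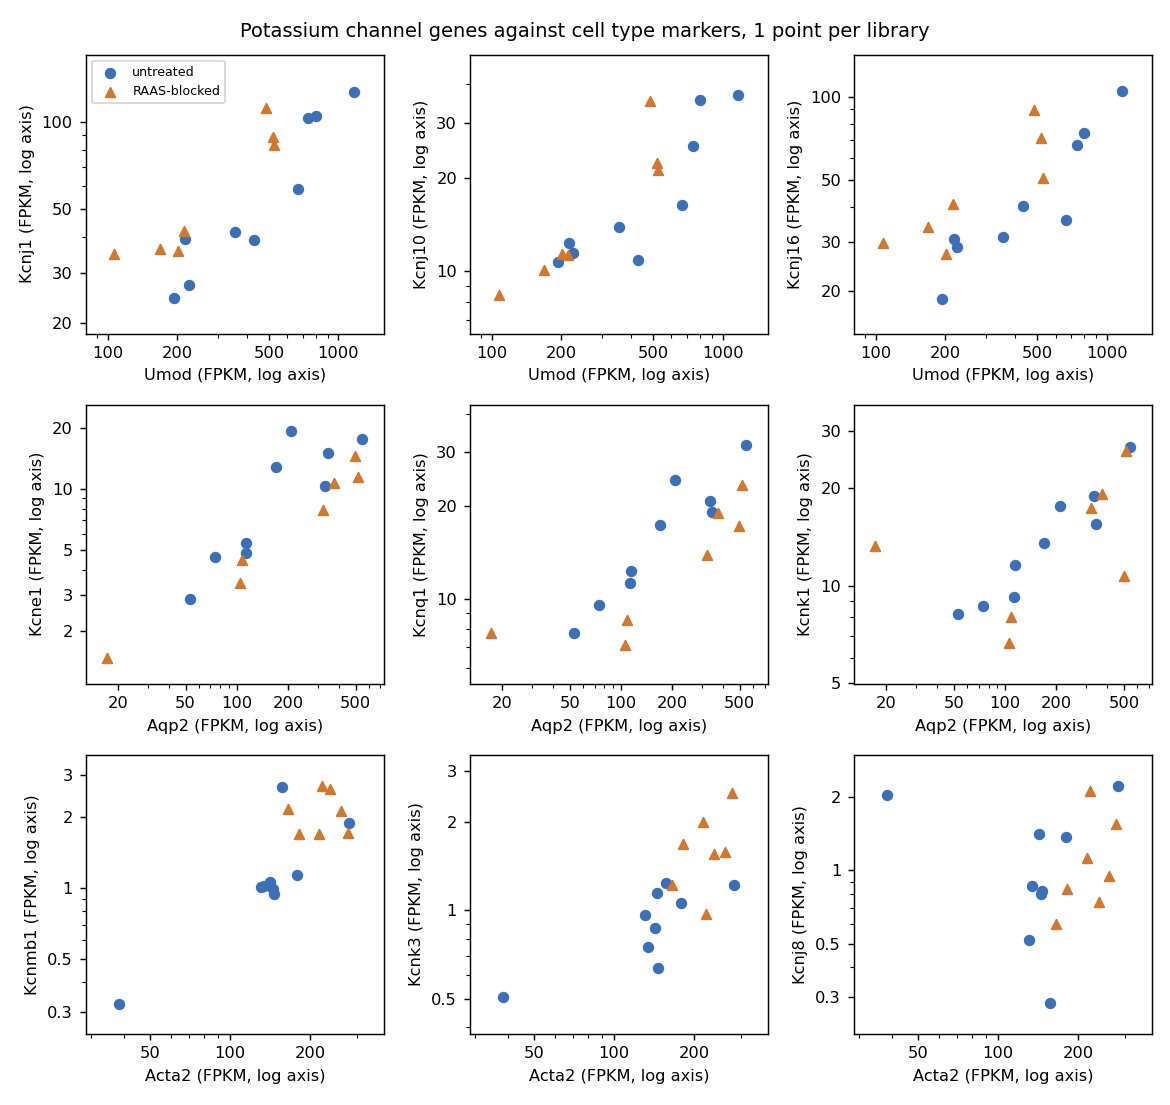
Channel gene level against marker level (FPKM, both axes logarithmic), 1 point per library, circles untreated and triangles RAAS-blocked. Kcnj1, Kcnj10 and Kcnj16 climb with Umod and Kcne1 and Kcnq1 with Aqp2, while untreated replicate 1 stands apart at 38.3 FPKM of Acta2, with Kcnj8 at 2.05 FPKM.

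Aqp2 was followed by 4 of 27 members, Kcne1, Kcnq1, Kcnj1 and Kcnk1 (11.9% of all genes), and by permutation of r by Kcne1 and Kcnq1 (8.60%). Kcne1 ran from 2.87 through a median of 10.4 to 19.3 FPKM in untreated and from 1.46 through 7.90 to 14.6 FPKM in RAAS-blocked libraries. The lowest value was in RAAS-blocked replicate 4, which also had the lowest Aqp2, at 17.2 FPKM. The slope was 0.59 ± 0.07 (limma adjusted p 2.0e-04), with an r of 0.88 (permutation p 2.0e-05, adjusted 0.00230) and a rho of 0.84 (permutation p 1.3e-04, adjusted 0.00798). Leaving out the 2 most extreme Aqp2 libraries gave 0.79. Kcnq1, whose pore Kcne1 modifies, ran from 7.79 through 17.4 to 31.7 FPKM in untreated and from 7.09 through 13.9 to 23.4 FPKM in RAAS-blocked libraries. Its slope was 0.39 ± 0.06 (limma adjusted p 1.0e-03), its r 0.84 (permutation p 6.0e-05, adjusted 0.00400) and its rho 0.86 (permutation p 7.0e-05, adjusted 0.00613). Kcne1 and Kcnq1 passed in every alternative run for Aqp2. Kcnq1 also overlaps Kcnq1ot1 on the other strand.

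Kcnj1, which principal cells also express, had a slope on Aqp2 of 0.36 ± 0.11 (limma adjusted p 0.0341), and Kcnk1 one of 0.27 ± 0.08 (0.0352). Both calls were lost without some single libraries, listed in the closing section, while the slopes stayed at 0.32 or above and 0.23 or above with any 1 library left out. Without RAAS-blocked replicate 4, the library with the least Aqp2, the slopes were 0.57 and 0.50. With Acta2, Umod and Aqp2 in 1 model Kcnj1 still passed for Aqp2. The slope of Kcnk1 was then 0.14 and did not pass (limma adjusted p 0.190). Over the alternatives other than single libraries left out, the lowest Aqp2 slope of Kcnj1 was 0.17. The r of Kcnj1 with Aqp2 was 0.64 and did not pass (permutation p 0.00712, adjusted 0.0614), nor did its rho of 0.63 (permutation p 0.0101, adjusted 0.0874). Kcnk1 had an r of 0.64 (permutation p 0.00772, adjusted 0.0648) and a rho of 0.77 that passed (permutation p 9.2e-04, adjusted 0.0222). Slopes below 0 passed for Kcnd3, Kcnq5, Kcnj5 and Kcnk6, 4 of 27 members (8.60% of all genes), at -0.21 ± 0.06, -0.18 ± 0.06, -0.15 ± 0.05 and -0.16 ± 0.06. Their limma adjusted p ran from 0.0221 to 0.0473, and each call was lost without some single library. Alternatives were 16 runs with 1 library left out and 10 others. Over these Kcnd3 lost its call in 4, Kcnq5 in 9, Kcnj5 in 14 and Kcnk6 in 16. The slopes with any 1 library left out ran from -0.34 to -0.18 for Kcnd3, -0.27 to -0.15 for Kcnq5, -0.19 to -0.13 for Kcnj5 and -0.23 to -0.14 for Kcnk6, each steepest without RAAS-blocked replicate 4. Of these 4 only Kcnd3, a transient voltage-gated pore, had an r that also passed (6.23% of all genes), at -0.69 (permutation p 0.00301, adjusted 0.0360), with a rho of -0.78 (permutation p 5.9e-04, adjusted 0.0174).

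For the vessel wall the answer depended on the test. No member followed Acta2 by slope (0.0979% of all genes did), although 7 of 27 had an unadjusted p under 0.05 with a slope above 0 (6.71% of all genes): Kcnn4, Kcna5, Kcnmb1, Kcnab1, Kcnh2, Kcne4 and Kcnk3. By slope without a term for treatment no member passed either, and 21 of all tested genes did. The permutation test of r, which has no such term, passed Kcnmb1 and Kcnk3 (1.32% of all genes). Its p-values were adjusted together with those for Umod and Aqp2. These had 1395 and 1143 genes with a called r above 0, against 175 for Acta2. An adjustment over Acta2 alone was not run, so these passes hold for the joint adjustment only. Kcnmb1 had an r of 0.77 (permutation p 5.4e-04, adjusted 0.0131) and a rho of 0.70 (permutation p 0.00373, adjusted 0.0484). Kcnk3 had an r of 0.72 (permutation p 0.00137, adjusted 0.0221) and a rho of 0.76 (permutation p 0.00107, adjusted 0.0239). Within untreated libraries r was 0.75 for Kcnmb1 and 0.76 for Kcnk3, and within RAAS-blocked ones 0.04 and 0.49. Acta2 spans 38.3 to 281 FPKM untreated and 165 to 278 FPKM RAAS-blocked. Leaving out the 2 most extreme Acta2 libraries gave an r of 0.63 for Kcnmb1 and 0.78 for Kcnk3.

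Kcnj8 had an r with Acta2 of -0.03 (permutation p 0.926, adjusted 0.965) and a rho of 0.34 (permutation p 0.203, adjusted 0.471). The r was 0.45 without the 2 most extreme libraries, -0.15 within untreated and 0.47 within RAAS-blocked libraries, so the value over all libraries depended on the extreme ones. Untreated replicate 1 had the lowest Acta2 and a Kcnj8 level near the top of the range, at 2.05 FPKM. Of the other genes near the vessel wall, Kcnab1 had an r of 0.60 (permutation p 0.0333, adjusted 0.159) and a rho of 0.23, and r was -0.06 without the 2 farthest libraries. Kcnn4, a calcium-activated pore of blood cells, had an r of 0.56 that was -0.07 without them. These relations rested on untreated replicate 1, where Kcnn4 was at 0.482 FPKM and Kcnab1 at 1.17 FPKM, and on untreated replicate 8, which had the most Acta2. Kcne4 had an r of 0.55 and 0.44 without the 2 libraries, and Kcnh2 0.52 and 0.38. The lowest r with Acta2 were those of Kcnj15, -0.47, and Kcnj10, -0.37.

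Markers of other cells, chosen after the data were seen as the first gene of each list, placed further members, again with permutation p adjusted over 106280 relations. Kcnj15 followed Slc34a1, a sodium-phosphate cotransporter in proximal tubule cells, with an r of 0.92 and a rho of 0.94 (adjusted permutation p 0.00266 and 0.00212), 2 members in all (6.05% of all genes). Both were highest in untreated replicates 1 and 4, with Kcnj15 at 32.1 and 25.0 FPKM, and lowest in RAAS-blocked replicate 6, with Kcnj15 at 0.391 FPKM and Slc34a1 at 2.59 FPKM. Kcnj10 followed Slc12a3, the salt transporter of the distal convoluted tubule, with an r of 0.89 and a rho of 0.88 (adjusted permutation p 0.00178 and 0.00619), 1 of 4 members that did (5.13%). Kcne1 and Kcnq1 followed Atp6v1g3, a proton pump subunit of intercalated cells, with r of 0.90 and 0.89 (both adjusted permutation p 0.00266) and rho of 0.93 and 0.87. With Kcnk1 they were 3 members (8.23%). Kcnk6, Kcnd3 and Kcnq5 had r of -0.86, -0.85 and -0.80 with it (5.28% of all genes had a called r below 0).

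Several members went with markers of the glomerulus itself. Kcnj5 followed Kdr, the endothelial receptor for vascular endothelial growth factor, with an r of 0.89 and a rho of 0.83 (adjusted permutation p 0.00266 and 0.0136), 1 of 2 members that did (4.33%). Kcnj5 was highest, at 16.9 FPKM, in untreated replicate 0, which also had the most Kdr, at 524 FPKM. Kcnq5 and Kcne4 followed Pdgfrb, a receptor of mesangial cells and pericytes, with r of 0.84 and 0.80, rho of 0.84 and 0.85 and adjusted permutation p of 0.00595 and 0.00950 for r, 2 members in all (2.10%). Kcng2, a subunit that forms no channel alone, followed Nphs1 with an r of 0.85 (adjusted permutation p 0.0130), the only member to do so (3.59%), but its rho of 0.66 did not pass (0.0971) and r fell to 0.47 with the 2 most extreme Nphs1 libraries left out. Kcng2 was at 8.56 and 7.86 FPKM in RAAS-blocked replicate 6 and untreated replicate 6, which had the most Nphs1, 470.1 and 433 FPKM.

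The leukocyte marker went with a different pair. Kcnab2, a beta subunit, followed Ptprc (the leukocyte antigen CD45) with an r of 0.84 and a rho of 0.81 (adjusted permutation p 0.00448 and 0.0136), and Kcnj2, a strong inward rectifier, with an r of 0.80 and a rho of 0.71 (0.00877 and 0.0593), 2 members in all (4.48%). Untreated replicate 3 had the most Ptprc, 41.0 FPKM, and the most Kcnab2 and Kcnj2, 5.91 and 2.53 FPKM. The leukocyte list, of which 4 of 6 genes were tested and none was at 0 in all libraries, summed to 19.0 to 305 FPKM in untreated and 26.4 to 121 FPKM in RAAS-blocked libraries. The part of leukocytes in these 2 levels was not tested. Kcng2 and Kcnab2 are named because of these values.

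**Figure D5:**
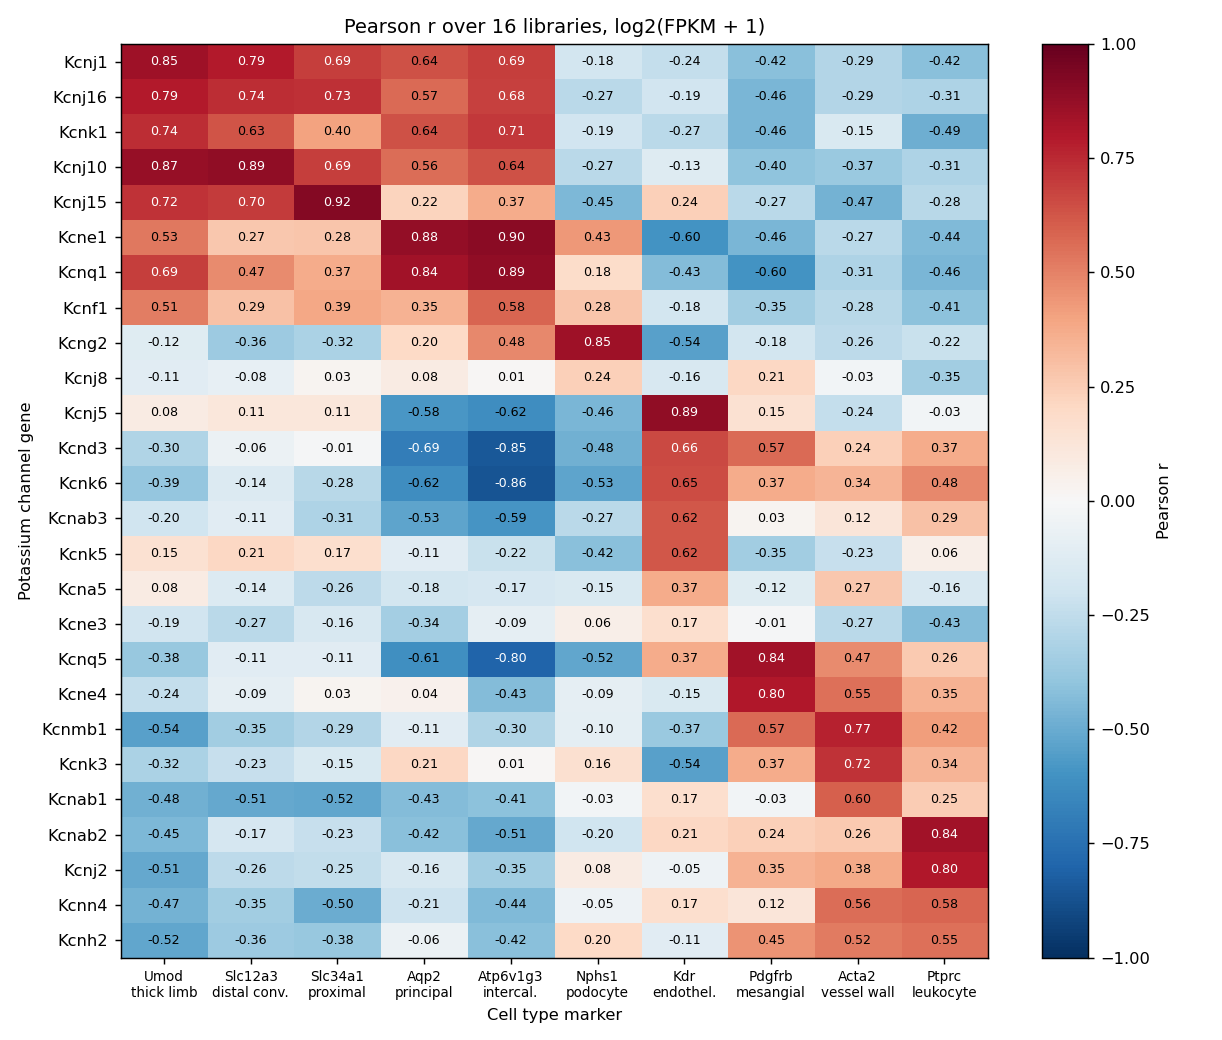
Pearson r over 16 libraries between 26 of the 27 members (rows) and 1 marker for each of 10 cell types (columns), on log2(FPKM + 1), with the color bar from -1 to 1. A block of Kcnj1, Kcnj16, Kcnk1, Kcnj10 and Kcnj15 is red with thick limb, distal and proximal tubule markers, Kcne1 and Kcnq1 with both collecting duct markers, and Kcnj8 is pale throughout.

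Partner subunits were compared next, adjusted over 66425 relations. Kcnj16 and Kcnj10 had an r of 0.90 and a rho of 0.79 (permutation p 1.0e-05 and 5.0e-04, adjusted 0.00139 for r), and Kcnj10 ranked 123 of 13285 genes by r with Kcnj16. Kcnq1 and Kcne1 had an r of 0.93 and a rho of 0.91 (both permutation p 1.0e-05, adjusted 0.00139 for r), with rank 59. Both pairs thus moved together over libraries, as did many other tubule genes. Kcnj8 and Abcc9, the sulfonylurea receptor that it needs to form a channel, had an r of 0.15 and a rho of 0.25 (permutation p 0.584 and 0.345, adjusted 0.852 for r), with Abcc9 at 0.380 to 5.35 FPKM. Kcna5 and its beta subunit Kcnab1 had an r of 0.55 and a rho of 0.54 (permutation p 0.0290 and 0.0330, adjusted 0.196 for r). Within the untreated group their r was 0.99, and 0.93 over the 8 libraries other than replicate 1, which was low for both. Within the RAAS-blocked group it was 0.40, and the difference between the groups was not tested.

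Position on the chromosome did not go with shared levels in 2 pairs of members that are adjacent protein-coding genes. Kcnj16 and Kcnj2 had an r of -0.48 (adjusted permutation p 0.299), and Kcnj5 and Kcnj1 an r of -0.28 (adjusted 0.651). Over all 351 pairs of members the median r was -0.04, from -0.83 for Kcne1 and Kcnk6 to 0.95 for Kcnj1 with Kcnj10 and with Kcnj16. Among the 15 pairs of Umod followers it was 0.81, from 0.41 to 0.95, and since they were picked for following 1 marker this is a description.

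The genes outside the family most like each named marker channel were ranked by Pearson r over 16 libraries, as a description. For Kcnj1 they were Atp1b1, the beta subunit of the sodium pump, Golt1a and Ptdss2, which makes phosphatidylserine, each at an r of 0.97. Kcnk3 was most like Crispld2 (0.87), Ren1, which encodes renin (0.83), and Cnn1, the smooth muscle protein calponin (0.83). Ren1 was 6.92 to 263 FPKM in untreated libraries and 443 to 1584 FPKM in RAAS-blocked ones other than replicate 4, which had 33.5 FPKM and Kcnk3 at 1.22 FPKM. Kcnk3 and Cnn1 had an r of 0.92 within untreated and 0.86 within RAAS-blocked libraries, and Kcnk3 and Ren1 0.70 and 0.59. Ppp4r1l (0.81) and Trp53i11 (0.74) were among the 3 genes most like Kcnj8.

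Other genes of potassium and salt handling, 30 of 33 on a list of pumps, cotransporters, chloride and sodium channels and their regulators, could be tested. None passed for treatment, 11 had higher and 19 lower means, and none had an unadjusted p under 0.05 by limma. With Umod 15 of 30 rose (12.3% of all genes) and 1 fell (5.10%). Those that rose include Slc12a1, the thick limb cotransporter that Kcnj1 supplies with potassium, at a slope of 0.99 ± 0.09, Fxyd2, the gamma subunit of the sodium pump, at 0.84 ± 0.07, Bsnd, the chloride channel subunit barttin, at 0.81 ± 0.08, and the kinase gene Wnk4 at 0.73 ± 0.06 (limma adjusted p 2.6e-06 to 1.8e-05). Slc12a4, a potassium-chloride cotransporter, fell at -0.16 ± 0.05 (limma adjusted p 0.0319). With Aqp2 9 of 30 rose (11.9% of all genes) and 2 fell (8.60%). Hsd11b2, which shields the mineralocorticoid receptor from glucocorticoids, had a slope of 0.63 ± 0.10, and the sodium channel subunits Scnn1g and Scnn1b had 0.59 ± 0.08 and 0.57 ± 0.07 (limma adjusted p 3.2e-04 to 0.00156). Slc12a2, a cotransporter found in many cells, fell at -0.28 ± 0.08 (limma adjusted p 0.0198). None of the 30 passed for Acta2, where 2 had an unadjusted p under 0.05 with a slope above 0 and 1 with a slope below 0.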

How the data were processed

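Per the labels' protocols, glomerular RNA was made into libraries with an Illumina TruSeq mRNA kit. The authors deposited FPKM values, 1 column per library, and per the submitters' processing notes the tools were TopHat2 2.0.8, Cuffdiff 2.2.1, Cufflinks, CASAVA 1.8.2 and FastQC. No build, annotation or strand setting is named in the labels or the table, and promoter coordinates are RefSeq's, not the authors'. An FPKM falls when another RNA takes more of a library. Rn18s was listed at 0 in untreated and 2214 to 9925 FPKM in RAAS-blocked libraries, and Mir27a at 672307 and 743781 FPKM in untreated replicate 7 and RAAS-blocked replicate 5. The upper quartile of the tested genes was 27.1 and 26.7 FPKM in those 2 libraries, and 25.6 to 28.5 FPKM in the others. No 2 libraries were identical.

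Values were tested as log2(FPKM + 1), which understates changes of low genes, with limma 3.58.1 in R 4.3.3 (mean trend, robust), and with permutations in Python 3.11.15 with numpy 2.4.6. The filter asked for 1 FPKM or more in 7 or more libraries. The members and lists were chosen with earlier results of these data known, and so were the partner pairs, the motifs and the markers beyond Acta2, Umod and Aqp2. Named members are Kcnj1, Kcnj8 and Kcnk3, those with the lowest treatment p (5 in each direction), the highest and lowest r with each marker (6 and 2), the 4 highest means and those at the threshold, plus 3 genes most like each of the first 3. Others were named after their values were seen, and some genes the rule takes are not reported here. Alternatives covered pseudocount, filter, scaling, array weights, variance model, rank test, group term, marker lists, a replicate block and each library left out. Added after seeing the data were fits without Rn18s and Mir27a, without untreated replicates 1 and 4, and with marker levels as covariates. The fits were tested on simulated data with independent genes. Of simulated treatment differences of 0.5 (log2) 62.7% were recovered, and 9.04% of all treatment calls there were false. Differences of 0.5, 1 and 2 had been placed in 67, 67 and 66 genes, whereas the real data gave 1 call up and 1 down. The adjusted p depends on how many genes change, so the 62.7% is no estimate for the members.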

Additional observations from a re-analysis of the deposited data

Results flagged for a closer look

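For each member and group the highest or lowest library was compared with the rest by its gap to the nearest library over the group's range, and 7 of 54 such groups passed Dixon's limit, of which chance gives about 1 in 20. Untreated replicate 1 was low for Kcna5, at 0.837 FPKM, and for Kcnab1, at 1.17 FPKM, and it also had the lowest Acta2, 38.3 FPKM. Untreated replicate 3 was high for Kcnab2, at 5.91 FPKM, with the highest Ptprc, 41.0 FPKM. RAAS-blocked replicate 6 was high for Kcng2, at 8.56 FPKM, with the highest Nphs1, 470.1 FPKM. RAAS-blocked replicate 0 was high for Kcnj2, at 2.43 FPKM, with the highest Ptprc of its group, 31.3 FPKM. Untreated replicate 0 was high for Kcnh2, at 4.58 FPKM, and untreated replicate 6 low for Kcnk5, at 2.89 FPKM. The part of these cell type markers in the single values was not tested.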

How the results depend on the processing

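No potassium channel gene and no potassium handling gene passed for treatment in any of the alternatives run. Depth is unknown, so small differences in members near 1 FPKM may not have been resolved. The signs of the differences with p near 1 turned: Kcnj1 was -0.06 with a replicate block and -0.12 to 0.21 with single libraries left out, and Kcnj8 was -0.01 with 3 marker covariates and -0.08 to 0.10 with single libraries left out. Kcnab1 was -0.05 with array weights and -0.11 with Acta2 or 3 markers as covariates, and Kcne4 was -0.14 and -0.15 with those covariates. With 3 markers Kcnmb1 was at 0.24, and with a pseudocount of 0.01 FPKM Kcnk3 was at 0.82 and Kcnmb1 at 0.93, against 0.45 and 0.52. Members following Acta2 numbered 0 by slope and 2 by permutation of r or of rho, and no single library left out brought a call by slope. Members following Umod numbered 6, and 5 to 7 with single libraries left out. Members following Aqp2 numbered 4, and 2 to 6 with single libraries left out, with 2 by permutation of r, 3 by permutation of rho and 2 without untreated replicates 1 and 4. They were 2 without untreated replicate 0, 2, 3 or 4 or RAAS-blocked replicate 3 or 5, which lost Kcnj1 and Kcnk1. Kcnj1 alone was lost without RAAS-blocked replicate 2 (slope 0.35, limma adjusted p 0.0509). Kcnk1 alone was lost without RAAS-blocked replicate 1 (slope 0.26, limma adjusted p 0.0503). Members with a called negative Umod slope numbered 0, 3 with quantile normalization, 1 by permutation of rho and 0 to 3 with single libraries left out. The 4 members with negative Aqp2 slopes were 0 without untreated replicate 0 or 4 and 5 with quantile normalization. They were also 0 with the replicate block and without both untreated replicates 1 and 4. Among all genes, treatment called 1 up and 1 down, 1 and 0 with upper-quartile or quantile scaling, 5 and 6 with array weights, 3 and 3 without RAAS-blocked replicate 4 and 0 and 0 without Rn18s and Mir27a. Acta2 slopes above 0 numbered 13, 31 with a pseudocount of 0.1 FPKM and 2 without untreated replicate 1. Aqp2 slopes called above and below 0 numbered 1582 and 1142, and 1297 and 1422 after quantile normalization. Replicate numbers occur in both groups, and the deviations of 7 same-numbered pairs correlated at -0.28 to 0.43, over 0.1 in 4. Without values of differently numbered pairs beside them, these cannot decide whether the numbers pair the libraries. With the replicate block Umod was followed by 2 members (Kcnj1 and Kcnj10) and Aqp2 by 2 (Kcne1 and Kcnq1). Under the block the Umod slopes of the lost members were 0.61 for Kcnj16, 0.58 for Kcnk1, 0.59 for Kcnq1 and 0.50 for Kcnj15, and over all genes 212 instead of 1635 had a called positive Umod slope and 632 instead of 1582 a called positive Aqp2 slope. The cause of these shifts was not tested.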
